A study of Mus musculus with 13 samples.

Results

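Loss of Ccm3 from brain endothelium at normal oxygen was set directly against 7 days of low oxygen in brains that keep Ccm3, to ask which of these single insults gives the higher transcript level of each gene and where the levels are alike. The 6 libraries compared, of 13 in the study, were chosen by their labels: 3 labelled knockout in normoxia and 3 labelled flox in hypoxia. KO normoxia mice were Slco1c1-iCreERT2;Pdcd10fl/fl, had received 50 µg of 4-hydroxytamoxifen into the stomach on postnatal day 1, and were kept at 21% oxygen. In them a tamoxifen-dependent Cre recombinase driven by Slco1c1 deletes Pdcd10, the gene for the CCM3 protein, in brain endothelial cells. Flox hypoxia mice were Pdcd10fl/fl, carried no Cre according to their genotype label, and were kept at 12% oxygen for 7 days. Both groups carry the loxP-flanked allele. The sources leave unclear whether flox mice were injected, and the study's text also names uninjected Cre carriers among its controls. Deletion, Cre, any injection and oxygen all differ between these groups, so their shares in a difference cannot be told apart. The labels give tissue (brain) and sex (male) but no animal number, age at collection or hour of collection, so a p-value here reflects how much these libraries vary, which may be technical. The estimate of spread also draws on 3 libraries labelled flox in normoxia (21% oxygen), which serve as a reference, and 4 labelled knockout in hypoxia. The KO hypoxia mice had the injection of 50 µg on postnatal day 1 and 12% oxygen for 7 days.

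CCM3 belongs to a complex with KRIT1 and CCM2 that restrains MEKK3 signalling in endothelial cells, and its loss raises the transcription factors KLF2 and KLF4 and leads to cerebral cavernous malformations, which are dilated and leaky capillary channels. Low oxygen stabilises hypoxia-inducible factors, which raise glycolytic enzymes and vascular growth factors such as VEGF-A and, through erythropoietin, red cell production. Brain vessels respond to prolonged low oxygen with sprouting. One insult thus begins inside the endothelial cell, and the other reaches every cell of the brain.

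RNA of whole cerebral tissue was sequenced as a stranded poly(A) library, and reads were counted per gene. The 6 libraries held 42090437 to 71216636 counts each, and 3 counts, the level below which a gene was taken as not detected, correspond to 0.0421 to 0.0713 CPM, a count scaled to the library's total. Some libraries stood apart. KO normoxia replicate 3 had 739 CPM of Xist, the RNA of the inactive X chromosome, although it is labelled male, and the 3 flox hypoxia libraries had 0.171 to 0.215 CPM. KO normoxia replicate 2 had 1.95 CPM of the choroid plexus transcript Ttr against 278 to 462 CPM in the other 5. Flox normoxia replicate 3, which enters the estimate of spread and serves as a reference, was high in genes that neurons switch on during activity, such as Fos (95.4 CPM against 20.1 and 18.4 CPM). It also had 793 CPM of Xist, where flox normoxia replicates 1 and 2 had 0.108 and 0.23 CPM. Pdcd10 itself did not separate the groups: it had 16.2, 18.1 and 16.4 CPM in KO normoxia and 17.5, 17.6 and 17.2 CPM in flox hypoxia, a difference of -0.04 ± 0.07. Endothelial cells are a small part of whole brain, and the deposited counts per gene do not resolve the deleted exons, so this value does not check the labels. In bulk tissue a lower level can come from fewer cells of a type or from less RNA per cell, and these cannot be told apart.

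Differences are given as log2 of KO normoxia over flox hypoxia ± standard error (SE), so that a positive value means a higher level in KO normoxia. A gene was called different at a Benjamini-Hochberg adjusted p under 0.05 in edgeR's quasi-likelihood test over 22507 genes, and alike when the 95% interval of its difference lay wholly within 1.5-fold either way. Of the genes tested, 336 (1.49%) were higher in KO normoxia and 90 (0.400%) were higher in flox hypoxia. In all, 426 genes (1.89%) were called, where 3029 had an unadjusted p under 0.05, and 78.9% of these were higher with Ccm3 loss. At least 2-fold apart were 107 genes on the KO normoxia side and 25 on the flox hypoxia side. A far larger set, 14012 genes (62.3%), was alike. The remaining 8162 genes (36.3%) were neither called nor alike, which says only that their interval was wide. Whether a gene could be shown alike depended on its level: 1.31% of genes with a mean below 0 log2 CPM were alike, 86.8% between 2 and 4, and 98.8% above 6. Of the called genes, 93 were also alike, meaning that a small difference was measured precisely. For the gene lists below, the shares to set beside a count are 1.49% called higher in KO normoxia, 0.400% higher in flox hypoxia and 62.3% alike.

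Calls were fewer when any 1 of the 6 compared libraries was left out. The count was 170, 216 or 250 without KO normoxia replicate 1, 2 or 3 and 152, 96 or 252 without flox hypoxia replicate 1, 2 or 3, and 89 of the 426 genes were called in every 1 of these 6 fits. No called gene changed sign in them. The genes said below to be called in all 6 fits are among these 89, and other calls were lost in at least 1, most often without flox hypoxia replicate 2. For orientation, each group was also compared with the same 3 flox normoxia libraries: 524 genes (2.33%) differed in KO normoxia and 5 (0.0222%) in flox hypoxia. Without flox normoxia replicate 1, 2 or 3 the latter count was 0, 0 or 45, and without replicate 1 the former was 250. Because these comparisons share their reference libraries, only each gene's own values are set side by side below, as the difference of KO normoxia from flox normoxia and that of flox hypoxia from flox normoxia.

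**Figure D1:**
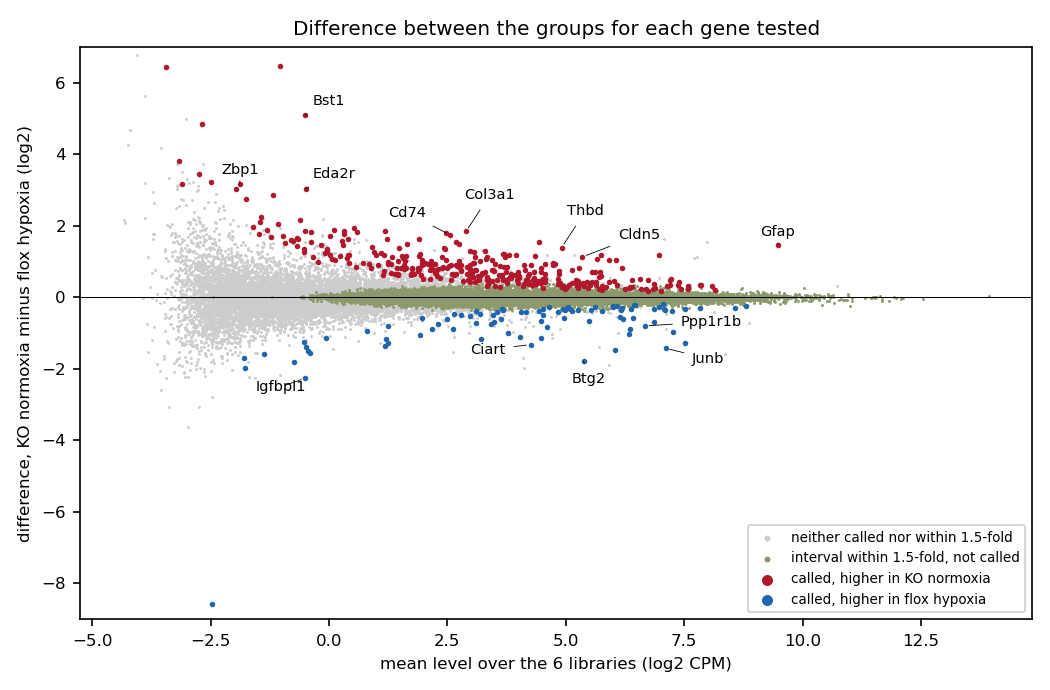
Each point is 1 of the genes tested, with its mean level over the 6 libraries on the x axis (log2 CPM) and its difference on the y axis (log2 of KO normoxia over flox hypoxia). Red points are the 336 genes called higher in KO normoxia, blue the 90 called higher in flox hypoxia, green the genes alike and not called, and grey the rest: red outnumbers blue, the cloud narrows toward high levels, and the lowest point is Gh, which had no count in KO normoxia.

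Endothelial identity genes were higher after Ccm3 loss. Of 20 pan-endothelial markers, 12 were called higher in KO normoxia (1.49% of all genes tested were) and none higher in flox hypoxia (0.400%). The median difference was 0.63 against -0.002 over all genes tested. Cldn5, the main tight junction claudin of brain endothelium, had 61.1, 64 and 55.6 CPM in KO normoxia and 27.3, 26.3 and 29.1 CPM in flox hypoxia. The groups were 2.19-fold apart without overlap, at 1.13 ± 0.14 (edgeR adjusted p = 0.000873). Ly6a, a surface protein of brain endothelium, had 41.1, 34.2 and 35.2 CPM against 14, 10.8 and 13.3 CPM, a difference of 1.53 ± 0.24 (edgeR adjusted p = 0.00373). Sox18 and Erg, transcription factors of the endothelial lineage, differed by 1.07 ± 0.18 and 0.66 ± 0.14. The junctional cadherin Cdh5 (0.70 ± 0.15), the angiopoietin receptor Tek (0.62 ± 0.11), its relative Tie1 (0.76 ± 0.15) and the adhesion proteins Icam2 (1.16 ± 0.21), Esam (0.49 ± 0.11) and Pecam1 (0.64 ± 0.15) were also called. The sialomucin Podxl (1.05 ± 0.21) and the adrenomedullin co-receptor Ramp2 (0.32 ± 0.07) completed the 12. Against flox normoxia the list's median was 1.03 in KO normoxia and 0.40 in flox hypoxia. Vwf, the platelet-binding clotting factor, stood at 60.3, 55.9 and 47.3 CPM against 20.7, 26.2 and 25.4 CPM and did not pass (edgeR adjusted p = 0.0538). The list depended on single libraries: 5, 5 and 9 markers were called without KO normoxia replicate 1, 2 and 3, and 5, 2 and 8 without flox hypoxia replicate 1, 2 and 3. The list median stayed between 0.57 and 0.69 in these fits.

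Among 22 blood-brain barrier genes, 5 were called higher in KO normoxia (1.49% of all genes tested were) and 12 were alike (62.3%). The median difference was 0.28. The amino acid transporter Slc38a5 had 8.07, 8.31 and 7.43 CPM in KO normoxia and 3.97, 3.75 and 3.77 CPM in flox hypoxia, a difference of 1.05 ± 0.10 (edgeR adjusted p = 9.38e-05). The efflux pump Abcg2 had 25.2, 22.2 and 22.5 CPM against 15.1, 14 and 15.5 CPM (0.65 ± 0.09). Flox hypoxia was at the flox normoxia level for this pump, at -0.03 ± 0.09. Pglyrp1, a peptidoglycan recognition protein that brain endothelium also makes, had 17.4, 14.6 and 14.7 CPM against 7.6, 4.31 and 7.14 CPM (1.29 ± 0.19). The tricellular junction protein Lsr differed by 0.92 ± 0.19, and the organic anion transporter Slco1a4 differed by 0.35 ± 0.08. The glucose transporter Slc2a1 had 172, 145 and 138 CPM against 107, 96.1 and 111 CPM and did not pass (edgeR adjusted p = 0.0911). Mfsd2a, the lipid transporter that holds transcytosis in check, was alike at 0.05 ± 0.13. Slco1c1, the thyroid hormone transporter whose promoter drives the Cre, ranged from 108 to 180 CPM in KO normoxia and from 133 to 208 CPM in flox hypoxia (-0.42 ± 0.29), with overlapping groups. The list had 5 calls without KO normoxia replicate 3, 4 without flox hypoxia replicate 1 and 3 without any 1 of the other 4 libraries.

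The targets of KLF2 and KLF4 divided. Klf4 had 25.8, 23.5 and 20.9 CPM in KO normoxia and 11.4, 8.14 and 11.3 CPM in flox hypoxia, a difference of 1.19 ± 0.25 (edgeR adjusted p = 0.0207). Klf2 had 35.3, 26 and 21.7 CPM against 25.6, 20.9 and 21.3 CPM, with overlap (0.29 ± 0.23, interval -0.21 to 0.79). Against flox normoxia, Klf2 stood at 1.03 ± 0.24 in KO normoxia and at 0.74 ± 0.24 in flox hypoxia, whereas Klf4 stood at 1.45 ± 0.25 and 0.26 ± 0.25. The KLF target Thbd, thrombomodulin, which turns thrombin into an anticoagulant, had 52.6, 48.2 and 45.7 CPM against 18.1, 16.1 and 21.7 CPM. It was 2.62-fold higher in KO normoxia at 1.39 ± 0.17 (edgeR adjusted p = 0.000838), and flox hypoxia lay at 0.03 ± 0.17 from flox normoxia. Nos3, endothelial nitric oxide synthase, had 16.1, 15.7 and 14.9 CPM against 7.87, 6.32 and 8.55 CPM (1.04 ± 0.13). The metalloproteinases Adamts1 (0.50 ± 0.17) and Adamts4 (-0.35 ± 0.15), which cleave proteoglycans, were not called. In the list of CCM proteins and their kinases, 2 of 14 were called: Heg1, the receptor that anchors the complex at the membrane (0.72 ± 0.13), and Ccm2l, the endothelial paralog of Ccm2 (0.82 ± 0.16). Krit1 (-0.11 ± 0.06) and Ccm2 (-0.16 ± 0.14) were alike. The Klf4 call was lost without KO normoxia replicate 1 or 2 or any flox hypoxia library. Of the 4 calls in the KLF list, 2 held without flox hypoxia replicate 1 or 2.

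Caveolae are membrane flasks that carry cargo across endothelium and that the brain normally keeps few. Of 10 genes of caveolae and vesicle transport, 4 were called higher in KO normoxia (1.49% of all genes tested were), with a list median of 0.50. The coat protein Cavin1 had 41.7, 35.8 and 35.7 CPM against 19.8, 18.3 and 21.8 CPM (0.92 ± 0.16, edgeR adjusted p = 0.00669). Cav2 had 55.9, 55.3 and 51.1 CPM against 42.1, 37.9 and 41.2 CPM, a difference of 0.42 ± 0.06 that was both called and within the 1.5-fold margin. The neck ATPase Ehd2 (0.88 ± 0.17) and the coat protein Cavin3 (0.50 ± 0.10) were the others. Cav1, the main structural caveolin, had 20.7, 20.1 and 17.4 CPM against 14.3, 12.3 and 13.1 CPM and did not pass (edgeR adjusted p = 0.0606). The list had 2 calls without replicate 1 of either group and 1 when replicate 2 of flox hypoxia was left out.

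Of 25 tip cell and sprouting genes, 2 were called higher in KO normoxia, where 1.49% of all genes tested were. In edgeR, 7 of the 25 had an unadjusted p under 0.05. Alike were 16 (62.3% of all genes tested were), and the median difference was 0.01. The groups did not overlap, with KO normoxia higher, for 9 of the 25, where 11.2% of all genes tested did the same. Vegfa, the growth factor that drives sprouting, had 107, 86.2 and 84 CPM in KO normoxia and 109, 90.4 and 105 CPM in flox hypoxia (-0.14 ± 0.10). Its levels in flox normoxia were 60.6, 65.5 and 75.5 CPM, below all 6. Flt1, a decoy receptor for VEGF-A, had 60.4, 68.7 and 64.1 CPM against 71.8, 64.1 and 66.4 CPM (-0.07 ± 0.11), with 41.8 to 45.4 CPM in flox normoxia. Kdr, the main signalling receptor for VEGF-A, had 23, 23.8 and 20.5 CPM against 18.4, 17.7 and 19.8 CPM (0.27 ± 0.12, interval 0.01 to 0.53), with 9.37 to 12.2 CPM in flox normoxia. The chemokine Cxcl12 had 78.7, 86.5 and 81.4 CPM against 93, 82.5 and 93 CPM (-0.12 ± 0.09), with 54.9 to 64.9 CPM in flox normoxia. The tip cell peptide Apln had 27.6, 31.3 and 26.8 CPM against 25.7, 19.3 and 26.7 CPM (0.26 ± 0.15).

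Of the alike genes shifted the same way from flox normoxia in both groups, the 10 whose smaller shift was largest are named, and others exist. In flox hypoxia the shift was called by edgeR for Kdr and Cxcl12 only (adjusted p = 0.031 for each), and in KO normoxia for all but Clec14a and Hspg2. Beside Kdr, Flt1, Apln and Cxcl12 they were Abcc9, Zfp366, Clec14a, Hspg2, Nid2 and Il13ra1. Abcc9, the potassium channel subunit of pericytes, had 12.8, 11.7 and 11.6 CPM in KO normoxia, 12.7, 12.5 and 12.1 CPM in flox hypoxia and 7.02 to 8.15 CPM in flox normoxia. It stood at 0.70 ± 0.15 and 0.75 ± 0.15 from flox normoxia. The basement membrane genes Hspg2 (0.63 ± 0.20 and 0.55 ± 0.20) and Nid2 (0.55 ± 0.13 and 0.59 ± 0.13) and the endothelial surface protein Clec14a (0.69 ± 0.20 and 0.57 ± 0.20) stood at like distances too. The transcriptional regulator Zfp366 (0.87 ± 0.16 and 0.69 ± 0.16) and the interleukin receptor chain Il13ra1 (0.64 ± 0.15 and 0.52 ± 0.15) completed the set. Angpt2, the Tie2 ligand that destabilises vessels, is named here after its values were seen: it had 2.69, 2.47 and 2.89 CPM against 3.53, 2.49 and 2.89 CPM, with 1.08 to 1.69 CPM in flox normoxia. Its interval (-0.59 to 0.28) reached just past the margin, so it counts as neither called nor alike.

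The tip cell genes called were receptors of other ligands. Aplnr, the receptor of apelin, had 3.3, 3.31 and 2.6 CPM in KO normoxia and 1.23, 0.622 and 1.65 CPM in flox hypoxia (1.40 ± 0.31, edgeR adjusted p = 0.0297). Robo4, a receptor that stabilises endothelium, had 14, 15.2 and 15.3 CPM against 11, 8.83 and 9.13 CPM (0.62 ± 0.13). Neither was called without replicate 2 of either group, and the list had 1 call without any 1 of the other 4 libraries. Among 17 Notch genes, Notch4, the endothelial Notch receptor, was the 1 called (0.62 ± 0.14), and among 21 TGF-beta and BMP genes it was Acvrl1, the endothelial BMP receptor ALK1 (0.90 ± 0.15, edgeR adjusted p = 0.00631). Alike were 11 of the Notch genes and 15 of the TGF-beta and BMP genes, near the 62.3% of all genes tested. Over all genes tested 1.49% were called higher in KO normoxia, so a single call does not set either list apart.

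**Figure D2:**
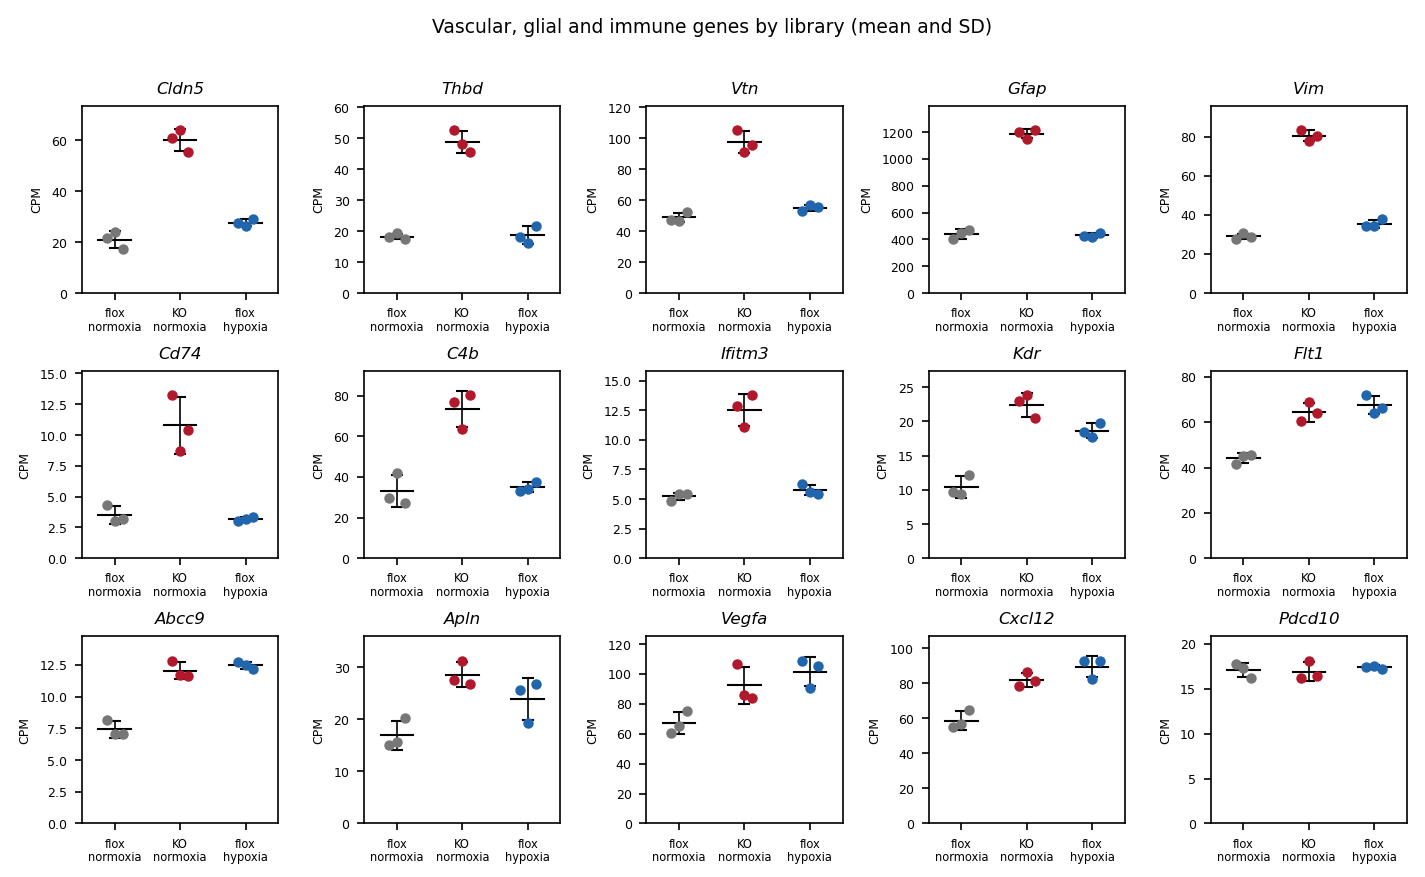
Levels of 15 vascular, glial and immune genes in single libraries (y axis, CPM) for flox normoxia, KO normoxia and flox hypoxia (x axis); points are libraries, with the group mean and SD. KO normoxia stands above both flox groups for Cldn5 to Ifitm3, while from Kdr to Cxcl12 KO normoxia and flox hypoxia lie together above flox normoxia, with Pdcd10 level in all.

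The vessel's supporting layers were mixed. Of 13 pericyte markers, 2 were called higher in KO normoxia: Vtn, the matrix protein vitronectin, with 105, 91.3 and 95.7 CPM against 52.9, 56.9 and 55.5 CPM (0.82 ± 0.10), and Rgs5, a regulator of G protein signalling, with 173, 184 and 160 CPM against 131, 118 and 123 CPM (0.48 ± 0.09). The pericyte growth factor receptor Pdgfrb was alike (0.12 ± 0.09). None of 12 smooth muscle genes was called by edgeR (6 at an unadjusted p under 0.05, 1 called by DESeq2, 0 by limma), although the list's median was 0.48, and Acta2, smooth muscle actin, overlapped between groups (4.94 to 7.1 CPM against 3.72 to 5.53 CPM).

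Fibrillar and fibronectin matrix was higher after Ccm3 loss, while the collagen IV of the basement membrane was alike. Of 32 matrix genes, 7 were called higher in KO normoxia (1.49% of all genes tested were), none higher in flox hypoxia (0.400%), and the median was 0.42. Col3a1, the collagen III of fibroblasts and vessel adventitia, had 15.7, 13.1 and 13.2 CPM against 3.38, 3.92 and 4.47 CPM. This 3.58-fold difference (1.84 ± 0.25, edgeR adjusted p = 0.00152) headed the genes with a mean above 2 log2 CPM. Col1a1, of collagen I, had 25.3, 18.3 and 19 CPM against 8.32, 9.62 and 9.89 CPM (1.17 ± 0.27). Both collagens lay on opposite sides of flox normoxia in the point estimates, Col3a1 at 1.48 ± 0.24 and -0.36 ± 0.26, and Col1a1 at 0.67 ± 0.26 and -0.50 ± 0.27. Fn1, fibronectin, had 185, 200 and 179 CPM against 83.3, 77.4 and 86.2 CPM (1.19 ± 0.17, edgeR adjusted p = 0.00201). Col18a1, source of endostatin, had 14.1, 12 and 12.6 CPM against 5.63, 4.57 and 5.95 CPM (1.26 ± 0.21), and the laminin chains Lama5 and Lamb2 differed by 0.72 ± 0.12 and 0.45 ± 0.10. Col4a1 (0.27 ± 0.14) and Col4a2 (0.17 ± 0.12) were alike, as was Sparc (0.02 ± 0.10), a collagen-binding matrix protein. Of 12 markers of leptomeningeal fibroblasts, of which Col1a1, Dcn and Lum are also in the matrix list, Foxd1, Ogn and Col1a1 itself were called and the median was 0.46. The fibroblast proteoglycan Dcn had 30.8, 22.5 and 29.3 CPM against 21, 20.5 and 21.1 CPM. The part of meninges in the tissue was not tested. The list had 2 calls without flox hypoxia replicate 2, 4 without replicate 1 of either group or replicate 3 of KO normoxia, and 5 otherwise, and Col3a1 and Fn1 were called in all 6 fits and Col1a1 in none. The leptomeningeal list had 3 calls without KO normoxia replicate 2, 1 without KO normoxia replicate 3 and none without any 1 of the other 4 libraries.

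Of 16 tested coagulation and fibrinolysis genes, 4 were called higher in KO normoxia (1.49% of all genes tested were) and the median was 0.51. The point estimate was above 0 for 13 and below 0 for 3, down to -0.69. Beside Thbd these were Anxa2, a plasminogen receptor (22, 18.4 and 19 CPM against 9.28, 7.05 and 9.25 CPM, 1.21 ± 0.21), F5, the cofactor factor V (20.5, 17.6 and 20 CPM against 7.2, 7.67 and 10.2 CPM, 1.22 ± 0.21), and Pros1, protein S (0.59 ± 0.12). The protease inhibitor Serpine2 (0.25 ± 0.09) and the plasminogen activator Plat (0.09 ± 0.10) were alike. The list had 2 calls when replicate 1 of flox hypoxia was left out, and Thbd alone without replicate 2.

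Reactive astrocyte genes were higher after Ccm3 loss. Of 29 tested reactive astrocyte genes, 11 were called higher in KO normoxia (1.49% of all genes tested were) and none higher in flox hypoxia (0.400%). The median was 0.75. Gfap, the intermediate filament that marks reactive astrocytes, had 1201, 1150 and 1214 CPM in KO normoxia and 423, 416 and 449 CPM in flox hypoxia. It was 2.77-fold higher (1.47 ± 0.15, edgeR adjusted p = 0.000198), and flox hypoxia lay at -0.04 ± 0.15 from flox normoxia. Vim, the partner filament vimentin, had 83.3, 78 and 80.4 CPM against 34.1, 34.4 and 37.9 CPM (1.18 ± 0.16). Srgn, the proteoglycan serglycin, had 14.7, 11.6 and 10.9 CPM against 5.38, 4.48 and 5.14 CPM (1.31 ± 0.17). Osmr, the oncostatin M receptor, had 8.43, 8.69 and 9.48 CPM against 4.63, 4.97 and 5.28 CPM (0.84 ± 0.13). Stat3, the transcription factor downstream of that receptor family, differed by 0.28 ± 0.06. Serpina3n, a protease inhibitor widely used as a reactive marker, did not follow: it had 24.2, 20.9 and 75.5 CPM against 17.4, 17.1 and 18.7 CPM, and flox normoxia had 76.7, 67.8 and 62.3 CPM. The list had 7 calls without KO normoxia replicate 2, 4 without flox hypoxia replicate 2 and 5 without any 1 of the other 4 libraries, and Gfap, Vim, Srgn and Osmr were called in all 6 fits.

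Of 17 homeostatic astrocyte genes, 14 were alike (62.3% of all genes tested were) and the median was 0.06. The remaining 3 were called higher in KO normoxia, where 1.49% of all genes tested were. They were the water channel Aqp4 (177, 168 and 191 CPM against 119, 123 and 131 CPM, 0.52 ± 0.10), the folate enzyme Aldh1l1 (0.44 ± 0.08) and the calcium binder S100b (0.48 ± 0.10). The glutamate transporter Slc1a2 was alike (-0.05 ± 0.05). When replicate 1 or 3 of KO normoxia or replicate 1 of flox hypoxia was left out, the list had 1 call, and without replicate 2 of flox hypoxia it had 0. Outside the rule, and named after its values were seen, Aldh1a1, a retinoic acid synthesising enzyme, had 100.1, 98.9 and 87 CPM against 47.3, 47.5 and 44.6 CPM (1.04 ± 0.10, edgeR adjusted p = 9.67e-05).

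None of 19 homeostatic microglia genes was called by edgeR (11 at an unadjusted p under 0.05, 3 called by DESeq2, 0 by limma), 13 were alike (62.3% of all genes tested were) and the median was 0.26. The receptors P2ry12 (0.08 ± 0.06) and Csf1r (0.26 ± 0.08) were alike. The groups nevertheless did not overlap, with KO normoxia higher, for 13 of the 19, where 11.2% of all genes tested did the same. None of 22 disease-associated microglia genes was called by edgeR (7 at an unadjusted p under 0.05, 2 called by DESeq2, 0 by limma). Of these, 10 were alike, among them Apoe, the lipid carrier of that state (0.05 ± 0.06), and 12 were neither, with differences of -0.28 to 1.52 over the list. Border macrophage, monocyte and neutrophil genes had 1 call of 14 tested, Mrc1, the mannose receptor of perivascular and meningeal macrophages, with 8.79, 6.61 and 7.98 CPM against 3.68, 2.98 and 3.94 CPM (1.14 ± 0.19, edgeR adjusted p = 0.00584). None of 10 tested lymphocyte genes was called by edgeR (6 at an unadjusted p under 0.05, 1 by DESeq2, 0 by limma), at a median of 1.03 and low levels, and the T cell receptor genes Cd3e, Cd3d and Cd3g were too low to test.

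Interferon response genes had higher point estimates in KO normoxia, though few passed. Of 24 genes, 5 were called higher in KO normoxia, where 1.49% of all genes tested were, and the median was 0.84. The groups did not overlap, with KO normoxia higher, for 21 of the 24, where 11.2% of all genes tested did the same. Ifitm3, a membrane protein that blocks viral entry, had 12.8, 11.1 and 13.8 CPM against 6.29, 5.59 and 5.42 CPM (1.12 ± 0.14, edgeR adjusted p = 0.000926). The guanylate-binding GTPases Gbp2 and Gbp3 differed by 1.05 ± 0.19 and 0.84 ± 0.14. Oasl2, a synthetase-like antiviral protein, differed by 1.20 ± 0.24, and was not called without KO normoxia replicate 3, its highest library, or without flox hypoxia replicate 2 or 3. Zbp1, a sensor of Z-form nucleic acid, had 0.614, 0.77 and 0.565 CPM against 0.0772, 0.0643 and 0.0717 CPM, the latter near the detection floor (3.16 ± 0.43). The GTPases Gvin1 (1.49 ± 0.21) and Irgm2 (1.38 ± 0.21), inducible by interferon, were among the genes with the largest differences. Gvin1 had 11, 10.8 and 11.6 CPM against 3.88, 3.64 and 4.4 CPM, and Irgm2 had 8.74, 7.97 and 9.17 CPM against 3.61, 3.11 and 3.18 CPM. Irgm2 lay above flox normoxia in KO normoxia (0.82 ± 0.20) and below it in flox hypoxia (-0.56 ± 0.21), but flox normoxia itself ranged from 3.27 to 7.28 CPM. With 1 library left out the list had 2 to 7 calls, with 2 when flox hypoxia replicate 2 was left out.

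The promoters of these genes were read for the interferon-stimulated response element core, GAAA, any 2 bases and GAAA again, on either strand, in windows from 250 bases before to 50 bases after the annotated start (RefSeq, build GRCm38.p6, an earlier build than that of the deposited counts). Of the 24 listed genes, 19 matched a promoter and 12 of these held the core, where 3.44% of all 32851 promoters and 3.77% of the 13753 tested genes with a promoter did. Among called genes Ifitm3, Gbp2 and Gbp3 held it and Oasl2 did not. The Gbp pair, neighbours on chromosome 3, is shown to let the placement be compared. The windows are chr3:142620413-142620712 for Gbp2 and chr3:142559794-142560093 for Gbp3, both on the plus strand, 5′ to 3′, with the matched bases in capitals. The core appears here in its reverse complement, and in Gbp3 2 matches overlap. A second Gbp3 window, chr3:142560106-142560405, held no match. A match describes these letters and does not show that a factor binds there.
Gbp2: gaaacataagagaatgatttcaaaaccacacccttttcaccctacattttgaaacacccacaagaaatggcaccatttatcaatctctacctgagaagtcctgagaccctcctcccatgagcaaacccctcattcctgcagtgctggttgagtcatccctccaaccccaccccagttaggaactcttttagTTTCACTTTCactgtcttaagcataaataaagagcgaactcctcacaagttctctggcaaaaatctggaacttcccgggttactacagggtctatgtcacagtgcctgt
Gbp3: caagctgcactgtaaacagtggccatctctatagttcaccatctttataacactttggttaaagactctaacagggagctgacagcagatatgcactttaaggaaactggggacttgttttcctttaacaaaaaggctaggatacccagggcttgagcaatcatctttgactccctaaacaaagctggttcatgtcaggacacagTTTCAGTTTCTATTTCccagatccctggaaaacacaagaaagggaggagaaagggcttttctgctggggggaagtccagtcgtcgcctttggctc

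Antigen presentation genes were higher in KO normoxia for both classes of molecule. Of 18 genes, 7 were called (1.49% of all genes tested were called higher in KO normoxia) and the median was 0.88. Cd74, the class II invariant chain, had 13.2, 8.68 and 10.4 CPM against 3.03, 3.22 and 3.37 CPM, a 3.36-fold difference (1.75 ± 0.28, edgeR adjusted p = 0.00412). The class II chains H2-Ab1 (1.86 ± 0.35) and H2-Aa (1.64 ± 0.33) were called as well. In class I, B2m, the shared light chain, had 72.3, 59.5 and 65.3 CPM against 44, 40.8 and 44.9 CPM (0.60 ± 0.10). H2-K1 differed by 0.94 ± 0.18, H2-D1 by 0.83 ± 0.18, and Nlrc5, the class I transactivator, by 1.85 ± 0.33. H2-K1 and H2-D1 are near-identical members of a gene family, so reads may be split between them. Between 2 and 8 of the 18 were called with 1 library left out, the lowest without flox hypoxia replicate 2. With replicate 1 of either group left out, 3 were called.

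Of 17 complement genes, 3 were called higher in KO normoxia, where 1.49% of all genes tested were. C4b, the early component made by reactive astrocytes, had 76.8, 63.5 and 80.1 CPM against 33.3, 34 and 37.7 CPM (1.07 ± 0.16, edgeR adjusted p = 0.0029). Serping1, the C1 inhibitor, differed by 1.02 ± 0.22. C4b was called in all 6 fits with a library left out, and the list had 2 calls without KO normoxia replicate 2 and 1 otherwise. Among 26 tested cytokine, chemokine and adhesion genes, 4 were called, including the chemokine Cxcl10, which is inducible by interferon (0.951 ± 0.281 against 0.227 ± 0.163 CPM, SD, n = 3 each, without overlap, 2.04 ± 0.47), and the leukocyte adhesion molecules Icam1 (0.91 ± 0.22) and Vcam1 (0.53 ± 0.13). The list had 0 calls without flox hypoxia replicate 2 and 1 call without any 1 of the other 5 libraries. The cytokine genes Il6 and Tnf were too low to test.

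**Figure D3:**
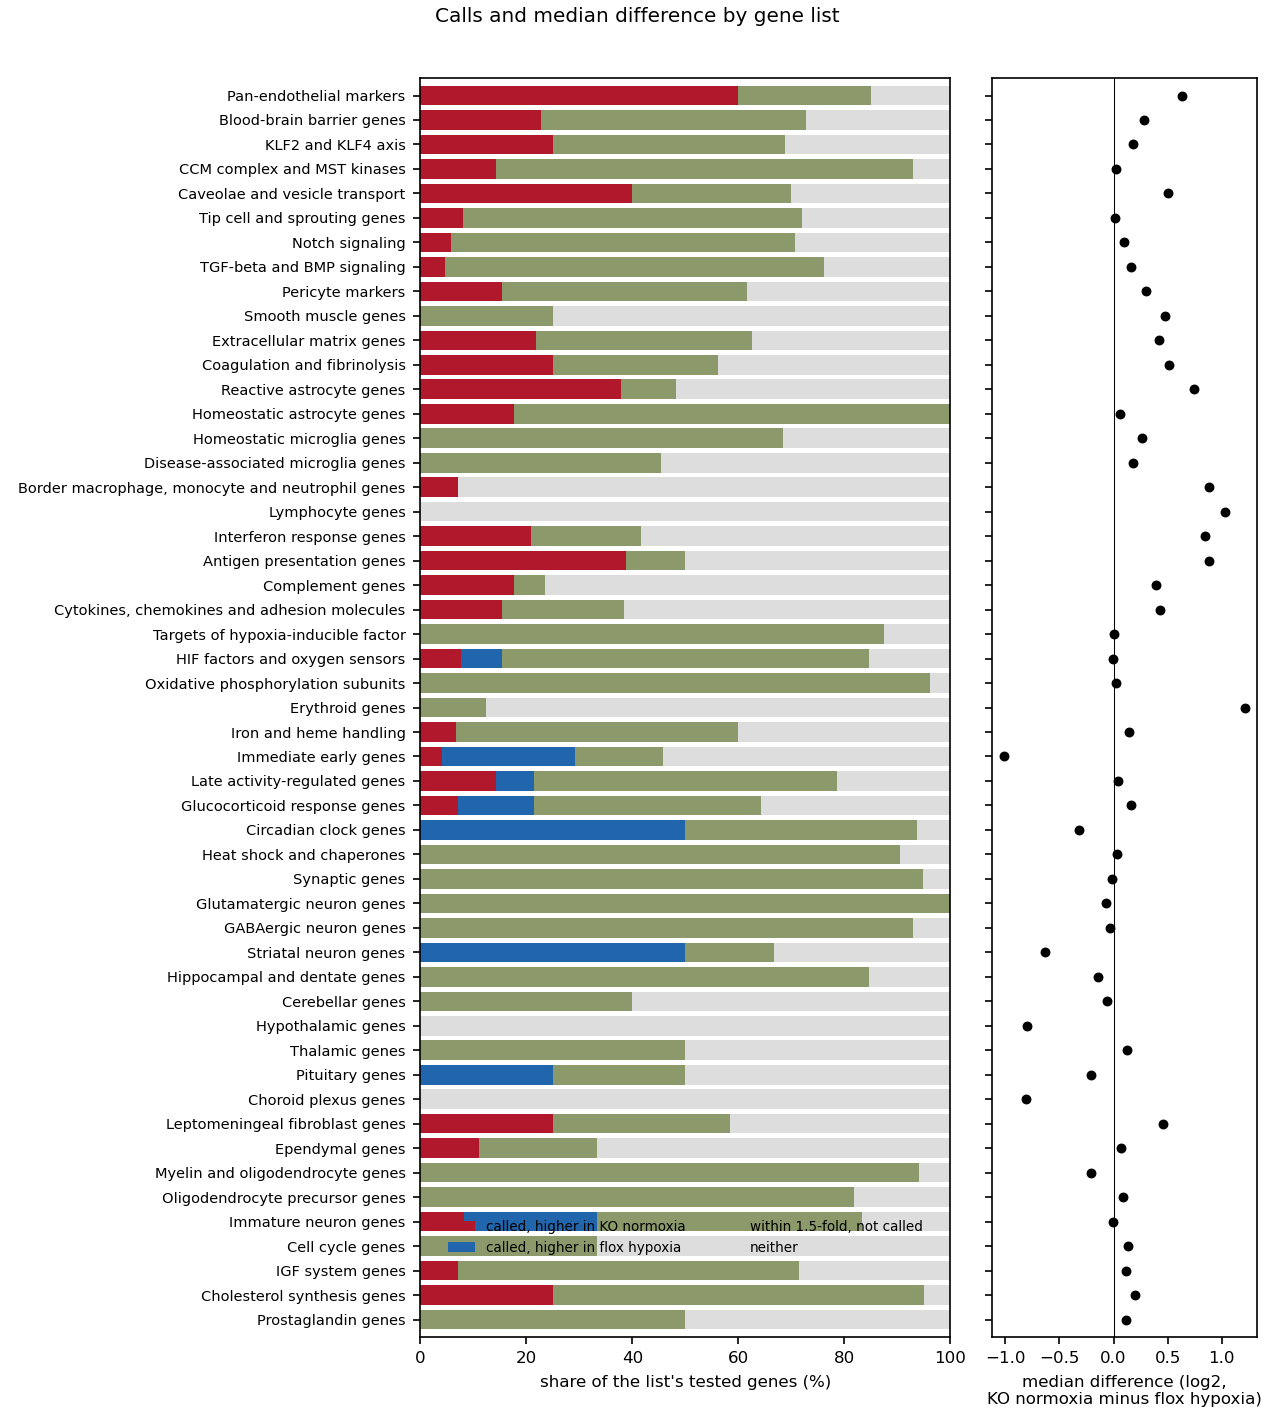
Each row is a gene list: the bar gives the share of its tested genes (%) called higher in KO normoxia (red), called higher in flox hypoxia (blue), alike and not called (green) or neither (grey), and the point at the right gives the list's median log2 difference. Vessel wall, matrix, reactive astrocyte and antigen presentation lists have red shares. The clock and striatal lists have the widest blue ones, followed by the immediate early, immature neuron and pituitary lists.

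Targets of hypoxia-inducible factor were mostly alike between the insults. Of 32 tested, none was called by edgeR, DESeq2 or limma (2 at an unadjusted p under 0.05). In edgeR 1.89% of all genes tested were called, so no call among 32 genes is near that share. Alike were 28 (62.3% of all genes tested were), and the median was 0.01. Being alike depends on level, and no share for genes of like level was taken for this list. Pdk1, the kinase that diverts pyruvate from mitochondria, had 73, 72.3 and 72 CPM in KO normoxia and 69.8, 69.3 and 72 CPM in flox hypoxia (0.04 ± 0.06). Pgk1 (0.03 ± 0.04), Ldha (0.10 ± 0.06) and Aldoa (0.08 ± 0.04), enzymes of glycolysis, were alike. Against flox normoxia, flox hypoxia itself stood at 0.04 ± 0.06 for Ldha and 0.06 ± 0.04 for Pgk1, so these bulk levels lay close to normoxia after 7 days at 12% oxygen. Of 26 oxidative phosphorylation subunits, 25 were alike and none was called by edgeR, DESeq2 or limma (2 at an unadjusted p under 0.05). The share of counts from mitochondrially encoded genes was 5.31% ± 0.355 (SD, n = 3) in KO normoxia and 5.31% ± 0.423 (SD, n = 3) in flox hypoxia (exact permutation test, two-sided, p = 1).

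Of 13 oxygen sensors and HIF factors, 1 was called in each direction, and 11 were alike, among them both called genes. Epas1, which encodes the endothelium-rich factor HIF-2 alpha, had 202, 195 and 190 CPM in KO normoxia and 143, 144 and 150 CPM in flox hypoxia (0.43 ± 0.07, edgeR adjusted p = 0.00373). Flox normoxia lay between, at 154 to 181 CPM. Hif1a was alike (0.01 ± 0.06). The call toward flox hypoxia was Bhlhe41, a repressor that also belongs to the clock and is described with it.

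Blood transcripts had higher point estimates in KO normoxia, but none passed. Hba-a1, an alpha-globin gene, had 549, 306 and 449 CPM in KO normoxia, 150, 144 and 156 CPM in flox hypoxia and 35.5, 44.8 and 57.2 CPM in flox normoxia. The 3 groups did not overlap, yet the difference between the insults (1.54 ± 0.48) did not pass (edgeR adjusted p = 0.135). Alas2, the heme enzyme of red cell precursors, had 18, 10.3 and 17.3 CPM against 4.82, 6.24 and 7.19 CPM (1.32 ± 0.58). Of 8 tested erythroid genes none was called by edgeR, DESeq2 or limma (5 at an unadjusted p under 0.05), and the median was 1.21. All hemoglobin genes together took 0.133% ± 0.0367 (SD, n = 3) of counts in KO normoxia and 0.0523% ± 0.0119 (SD, n = 3) in flox hypoxia, 2.54-fold apart, with 0.0197% ± 0.00595 (SD, n = 3) in flox normoxia. The exact permutation test gave p = 0.1, two-sided (0.2 adjusted over 2 shares), the smallest value 3 against 3 allows. Alpha-globin genes are near-identical copies, so their counts may be split. Among 15 tested iron and heme genes Slc40a1, the iron exporter ferroportin, was called (0.53 ± 0.11), but in none of the fits that left out a compared library. Hmox1, which breaks down heme, was not called (0.64 ± 0.45).

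Circadian clock genes that were called were higher in flox hypoxia. Of 16 tested clock genes, 8 were called higher in flox hypoxia (0.400% of all genes tested), none higher in KO normoxia, and the median was -0.32. Alike within 1.5-fold were 12 of the 16, and 7 of these were not called, so several called differences were small. The clock is a loop in which CLOCK and BMAL1 switch on their own repressors through E-box sites, so its output genes cycle with the hour of day. Ciart, a repressor of that loop, had 12.4, 10.3 and 13.5 CPM in KO normoxia and 30.1, 31.4 and 29.1 CPM in flox hypoxia, a 2.51-fold difference (-1.33 ± 0.15, edgeR adjusted p = 0.000507). Dbp, an output transcription factor, had 61, 59 and 59.6 CPM against 85.2, 91.6 and 99.4 CPM (-0.62 ± 0.06, edgeR adjusted p = 5.56e-05). Tef, its relative, had 345, 334 and 354 CPM against 415, 430 and 428 CPM (-0.30 ± 0.04). Nr1d1 (-0.36 ± 0.06) and Nr1d2 (-0.34 ± 0.05), the REV-ERB repressors, Per3 (-0.40 ± 0.06) and Bhlhe41 (-0.38 ± 0.06) were each separated without overlap. Per1 had 114, 100.3 and 118 CPM against 224, 211 and 209 CPM (-0.96 ± 0.20), and is also an immediate early gene.

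The clock genes of the other phase leaned the other way or were flat. Arntl, the BMAL1 gene, had 33.2, 32.1 and 28.1 CPM in KO normoxia and 25.6, 23.1 and 24.6 CPM in flox hypoxia (0.35 ± 0.09), without overlap but above the threshold (edgeR adjusted p = 0.0599). Npas2, its other partner, stood at 0.18 ± 0.06, and Clock (0.08 ± 0.07) and Cry1 (-0.004 ± 0.08) were alike. Relative to flox normoxia, Ciart stood at -0.67 ± 0.15 in KO normoxia and 0.65 ± 0.15 in flox hypoxia, Dbp at -0.34 ± 0.05 and 0.28 ± 0.05, and Tef at -0.15 ± 0.04 and 0.15 ± 0.04. The reference thus lay between the insults for these 3 genes. Leaving out any 1 of the 6 libraries kept 7 calls, all but Per1, which was lost each time. Neither the hour nor the day of collection is in the labels, so hour and group cannot be told apart for these genes.

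The E-box CACGTG, a palindrome that reads the same on both strands, was sought in the same 300-base windows. Of the 15 clock genes with a promoter, 5 held it, against 7.15% of all promoters and 10.6% of tested genes with one. Of the 8 called genes, Per1, Tef, Ciart and Bhlhe41 held it, and Per3, Nr1d1, Nr1d2 and Dbp did not. Per1 and Ciart are printed because they showed the widest clock differences. The Per1 window shown is chr11:69098699-69098998 on the plus strand with 1 match starting 166 bases before the start. A second Per1 window, chr11:69099902-69100201, held no match. The Ciart window is chr3:95882179-95882478 on the minus strand with 3 matches at 116, 58 and 44 bases before the start. Capitals mark the E-box. No match says only that these letters are not in the window.
Per1: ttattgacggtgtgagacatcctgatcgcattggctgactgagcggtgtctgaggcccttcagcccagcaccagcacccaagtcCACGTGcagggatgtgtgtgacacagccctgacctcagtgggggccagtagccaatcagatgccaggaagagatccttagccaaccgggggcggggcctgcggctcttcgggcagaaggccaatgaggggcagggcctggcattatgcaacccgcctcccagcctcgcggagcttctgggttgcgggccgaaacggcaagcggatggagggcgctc
Ciart: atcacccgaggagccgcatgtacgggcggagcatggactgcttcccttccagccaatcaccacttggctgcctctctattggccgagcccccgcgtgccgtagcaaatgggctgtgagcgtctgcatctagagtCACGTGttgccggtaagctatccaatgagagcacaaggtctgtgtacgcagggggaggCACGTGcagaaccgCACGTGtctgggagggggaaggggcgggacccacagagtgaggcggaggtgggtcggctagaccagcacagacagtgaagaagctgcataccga

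Immediate early genes, which neurons transcribe within minutes of activity, were higher in flox hypoxia. Of 24 tested, 6 were called higher in flox hypoxia (0.400% of all genes tested were) and 1, Klf4, higher in KO normoxia (1.49%). The median was -1.01. The groups did not overlap, with flox hypoxia higher, for 21 of 24, where 9.72% of all genes tested did the same. Btg2, an antiproliferative early gene, had 24.9, 21.6 and 20.6 CPM in KO normoxia and 78, 80 and 73.4 CPM in flox hypoxia, 3.45-fold apart (-1.79 ± 0.25, edgeR adjusted p = 0.00186). Dusp1, a MAP kinase phosphatase, had 46.5, 38.4 and 33.9 CPM against 109, 109 and 115 CPM (-1.49 ± 0.25). The transcription factors Junb (103, 72 and 78.6 CPM against 234, 236 and 212 CPM, -1.43 ± 0.28) and Nr4a1 (131, 113 and 112 CPM against 302, 279 and 281 CPM, -1.28 ± 0.29) and the nuclear protein Ier2 (-1.12 ± 0.24) followed. Fos had 41.2, 24.8 and 29.2 CPM against 125, 114 and 112 CPM, and Arc, which acts in synaptic plasticity, had 226, 176 and 169 CPM against 602, 537 and 561 CPM. Neither passed (edgeR adjusted p = 0.0554 and 0.0945), and flox normoxia replicate 3 was as high as flox hypoxia in Arc (598 CPM). The common estimate of spread includes that library: without it 17 early genes were called higher in flox hypoxia, and with only the 6 libraries in the fit 21 were. Without any 1 of the 6 compared libraries, 2 or 3 were called, Btg2 and Dusp1 in every case. 

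Genes that follow sustained activity or corticosteroids did not share that direction as groups. Of 14 late activity genes, Plk2 (-0.29 ± 0.06) was called higher in flox hypoxia, while Nptx2 (66.9, 63.2 and 61.5 CPM against 46, 38.7 and 43.6 CPM, 0.58 ± 0.13) and Inhba (0.77 ± 0.17) were called higher in KO normoxia. With a compared library left out, Nptx2 was called in 0 of 6 fits, Inhba in 1 and Plk2 in 2. Of 14 glucocorticoid response genes, Sgk1, a salt-regulated kinase (61.8, 45.8 and 62.6 CPM against 112, 118 and 115 CPM, -1.02 ± 0.24), and Per1 were higher in flox hypoxia. Neither Sgk1 nor Per1 was called when any 1 compared library was left out. Cdkn1a, the cell cycle inhibitor p21, went the other way with 33.1, 28 and 30.5 CPM against 14.4, 13.1 and 13.2 CPM (1.17 ± 0.17, edgeR adjusted p = 0.00186), a call that held in all 6 fits. It stood at 0.52 ± 0.16 and -0.65 ± 0.17 from flox normoxia. The classic hormone targets Tsc22d3 (-0.21 ± 0.14) and Fkbp5 (0.32 ± 0.14) were not called. Named after its values were seen, Eda2r, a death-domain receptor that like Cdkn1a is a known p53 target, had 1.84, 2.14 and 1.65 CPM against 0.212, 0.257 and 0.215 CPM (3.03 ± 0.26, edgeR adjusted p = 5.56e-05), with 0.549 to 0.646 CPM in flox normoxia.

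The cyclic AMP response element TGACGTCA, also a palindrome, lay in 2 of the 19 early genes with a promoter, Btg2 and Dusp1, against 1.79% of all promoters and 3.15% of tested genes with one. They are shown because they had the largest called differences of the list. Junb, Nr4a1, Klf4 and Per1 lacked those letters in the window. The Btg2 window is chr1:134079106-134079405 and the Dusp1 window is chr17:26508423-26508722, both on the minus strand, with the element in capitals.
Btg2: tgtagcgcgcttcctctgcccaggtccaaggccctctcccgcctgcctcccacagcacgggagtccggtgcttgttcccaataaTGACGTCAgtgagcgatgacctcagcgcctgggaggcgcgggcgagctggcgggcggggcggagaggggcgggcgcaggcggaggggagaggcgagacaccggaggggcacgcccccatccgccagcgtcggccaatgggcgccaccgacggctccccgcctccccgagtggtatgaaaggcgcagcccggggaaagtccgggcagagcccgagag
Dusp1: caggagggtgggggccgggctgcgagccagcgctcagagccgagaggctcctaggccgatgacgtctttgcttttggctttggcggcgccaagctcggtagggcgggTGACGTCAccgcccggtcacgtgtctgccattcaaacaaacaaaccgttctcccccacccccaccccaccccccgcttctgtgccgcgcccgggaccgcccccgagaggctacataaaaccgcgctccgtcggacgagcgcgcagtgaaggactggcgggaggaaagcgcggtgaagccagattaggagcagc

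**Figure D4:**
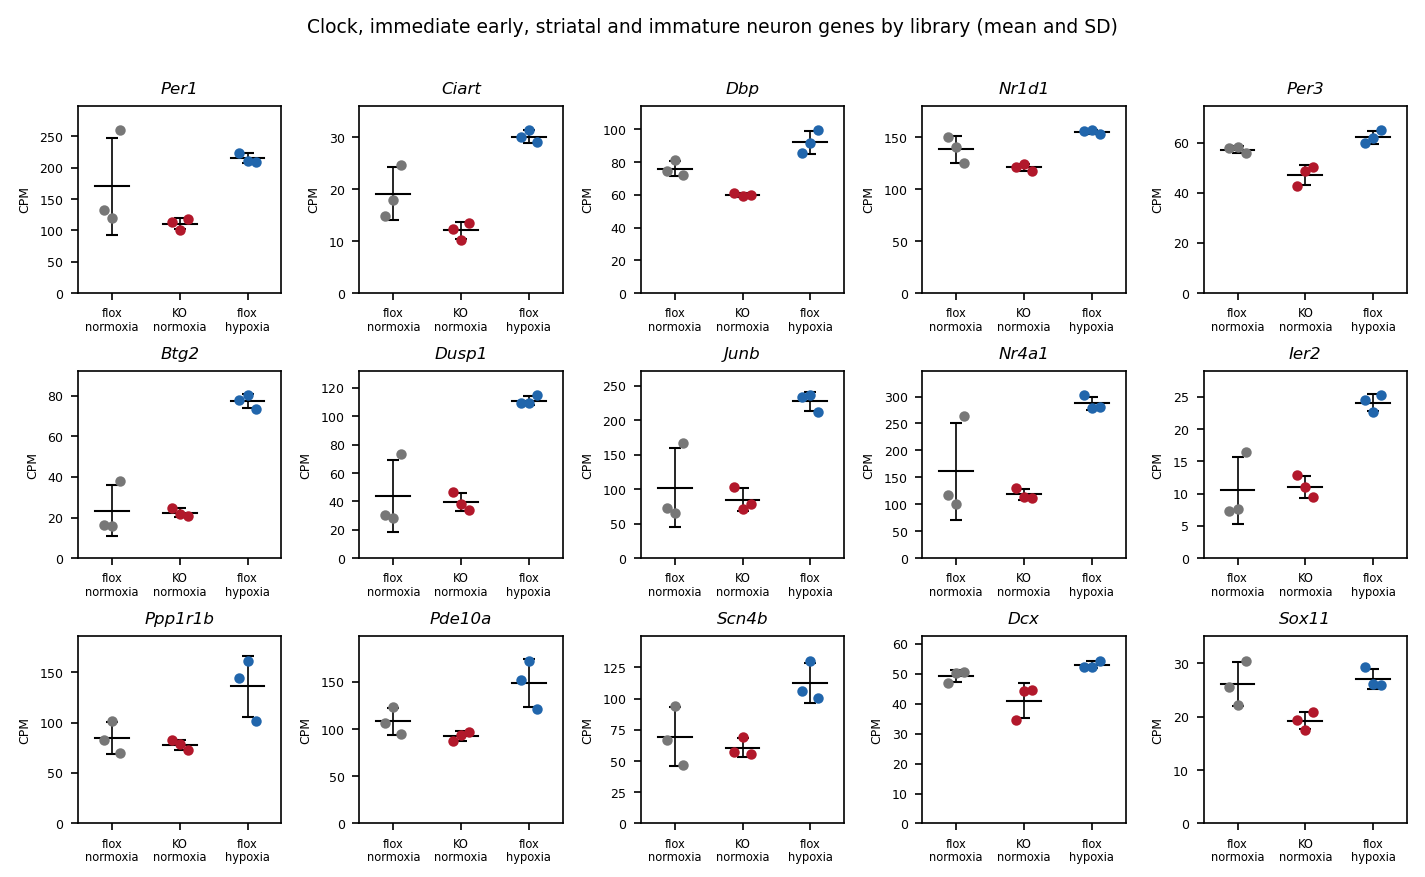
Levels of 15 clock, immediate early, striatal and immature neuron genes in single libraries (y axis, CPM) for flox normoxia, KO normoxia and flox hypoxia (x axis); points are libraries, with the group mean and SD. Flox hypoxia lies above KO normoxia without overlap in every panel, and the high flox normoxia point in the panels of early genes is replicate 3.

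Transcripts of striatal projection neurons were higher in flox hypoxia. Of 12, 6 were called (0.400% of all genes tested were called higher in flox hypoxia) and the median was -0.63. Ppp1r1b, the dopamine-regulated phosphatase inhibitor DARPP-32, had 82.7, 78.6 and 72.9 CPM against 144, 161 and 102 CPM (-0.80 ± 0.15, edgeR adjusted p = 0.0109). Pde10a, a striatal phosphodiesterase, had 87.1, 93.1 and 97.3 CPM against 152, 172 and 121 CPM (-0.68 ± 0.14). Scn4b (-0.89 ± 0.20), Rgs9 (-0.82 ± 0.19) and Rasd2 (-0.54 ± 0.10) were also called. Penk, the enkephalin precursor, had 61.8, 54.3 and 56 CPM against 96.8, 99.4 and 54.4 CPM and overlapped. Flox hypoxia replicate 3 was the lowest of its group in Ppp1r1b, Pde10a and Penk. Without it 9 striatal genes were called, but the Scn4b call was lost. Replicate 2 of flox hypoxia left out ended all 6 calls, replicate 1 left 1 call, and replicate 1 of KO normoxia left 2. Syndig1l and Ccdc187, which were among the 12 largest differences toward flox hypoxia and outside the list, showed the same low replicate 3, with 21.3, 25.3 and 12.7 CPM and 8.86, 9.45 and 6.93 CPM. The amount of striatum in each tissue piece was not tested.

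Transcripts of the choroid plexus and the pituitary were measured too. None of 14 choroid plexus genes was called by edgeR, DESeq2 or limma (3 at an unadjusted p under 0.05), at a median of -0.81, with KO normoxia replicate 2 lowest in Ttr, Kl and Clic6. Gh, the growth hormone of the pituitary, had 121 counts over the 3 flox hypoxia libraries (0.733 to 1.1 CPM) and 0 in KO normoxia and in flox normoxia. Against the floor of 3 counts over the group this is at least 47.5-fold higher. Prl, the pituitary hormone prolactin, had 38 counts against 0 and was too low to test, while Pomc, also made in the hypothalamus, overlapped (0.788 to 0.945 CPM against 0.67 to 1.14 CPM). Pituitary tissue in these libraries was not tested beyond these genes.

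Genes of immature neurons were divided. Of 12, 3 were higher in flox hypoxia: Sox11 (-0.49 ± 0.11) and Dcx (-0.37 ± 0.08), a transcription factor and a microtubule protein of migrating neurons, and Igfbpl1, a secreted IGF-binding relative of new neurons. Igfbpl1 had 0.212, 0.513 and 0.188 CPM in KO normoxia, 1.64, 1.59 and 1.41 CPM in flox hypoxia and 2.17 to 2.48 CPM in flox normoxia (-2.26 ± 0.30, edgeR adjusted p = 0.0012). Tubb2b, a tubulin of growing neurites, was higher in KO normoxia (0.32 ± 0.07). The list's median was -0.01. Igfbpl1 was called in all 6 fits with a library left out, and the other 3 in 1 or 2. None of 24 cell cycle genes was called by edgeR or limma, 1 was by DESeq2, and 1 had an unadjusted p under 0.05.

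Most mature neuronal and myelin genes were alike. All 14 glutamatergic genes, 18 of 19 synaptic genes, 13 of 14 GABAergic genes and 16 of 17 myelin genes were alike, and edgeR and limma called none. At an unadjusted p under 0.05 were 5, 2, 4 and 7 of these lists' genes, and DESeq2 called 0, 0, 3 and 2. The synaptic SNARE gene Snap25 had 2115, 2263 and 1944 CPM in KO normoxia and 2117, 2104 and 2187 CPM in flox hypoxia (-0.02 ± 0.05). Syt1, the calcium sensor of release, stood at 0.02 ± 0.04. Mbp, myelin basic protein, had 1850, 2115 and 1697 CPM against 2098, 2257 and 2375 CPM (-0.25 ± 0.10), within the margin though with 1 library of overlap, and the myelin median was -0.21. The groups did not overlap, with flox hypoxia higher, for 8 of the 17 myelin and 5 of the 14 glutamatergic genes, where 9.72% of all genes tested did the same. Of 21 heat shock genes 19 were alike and none was called by edgeR or limma (4 at an unadjusted p under 0.05, 2 called by DESeq2). These abundant genes have narrow intervals, as have other genes at their level, of which 96.9% to 98.8% were alike above 4 log2 CPM.

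Cholesterol synthesis genes showed small differences. Of 20 genes, 5 were called higher in KO normoxia (1.49% of all genes tested were) and 19 were alike (62.3%), with a median of 0.20. The point estimate was above 0 for 17 and below 0 for 3, over a range of -0.36 to 0.38. Hmgcs1, the synthase early in the pathway, had 262, 254 and 252 CPM against 209, 196 and 200.4 CPM (0.34 ± 0.07, edgeR adjusted p = 0.0197). Nsdhl (0.37 ± 0.08), the sterol carrier Stard4 (0.38 ± 0.09) and the regulator Srebf2 (0.21 ± 0.04) were called too. The list had 3 calls without replicate 1 or 3 of KO normoxia, 2 without replicate 1 or 3 of flox hypoxia, 1 without KO normoxia replicate 2 and 0 without flox hypoxia replicate 2. In the IGF list the imprinted RNA H19 was the 1 call of 14, with 1.04, 0.855 and 1.3 CPM against 0.135, 0.129 and 0.167 CPM (2.87 ± 0.47). Its neighbour Igf2 had 4.34, 3.09 and 4.58 CPM against 1.89, 2.36 and 2.63 CPM and did not pass (edgeR adjusted p = 0.0523).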

How the data were processed

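RNA of whole brain was sequenced as 13 stranded mRNA libraries in 4 groups (50 ng of input, RNA integrity above 8.0), per the labels' protocols. HISAT2, edgeR and the build GRCm39 are named in the submitters' processing notes, while annotation, strand setting and read filters are not given there or in the labels. The authors deposited raw counts per gene, used for the tests, and RPKM per gene, used only for an alternative. Of 55416 genes, 3333 had no symbol (0.346% of the counts of all 13 libraries together) and were not left out for that. Samples were grouped by their labels. Genes were kept with edgeR's filterByExpr over the 4 groups (22507) and scaled by TMM. They were fitted with edgeR 4.0.16 (R 4.3.3) by quasi-likelihood with 1 mean per group. All 13 libraries, KO hypoxia included, share the estimate of spread, and with only the 6 compared libraries 927 genes were called. P-values were adjusted over all genes tested (Benjamini-Hochberg, threshold 0.05), and SEs and 95% intervals follow from the same test. Intervals cover the spread between libraries, and the count floor covers counting error only. CPM values use scaled library sizes. Shares of counts were compared by exact permutation tests, two-sided. Replicates of a group differed by more than sampling noise (chi-square per degree of freedom at least 4.44 in the compared groups), so none was merged.

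Named genes were the 12 with the largest called difference in each direction at a mean of at least 2 log2 CPM with groups that do not overlap, leaving out genes without symbol, predicted and sex-linked genes; up to 4 called members with the smallest p of each list with at least 2 calls, and up to 3 abundant members not called; the 10 alike genes whose smaller shift from flox normoxia, in 1 direction, was largest; the 5 called genes in each direction for which flox normoxia lay farthest between the groups; and Pdcd10, Slco1c1, Klf2, Klf4, Gfap, Vegfa, Kdr, Hba-a1, Btg2, Cldn5, Cxcl12, Gh and Prl always. List members named beyond this rule were chosen after their values were seen. The comparison, its gene lists and these rules were chosen with earlier results of these data known. Alternatives were RLE or no composition scaling, other filters, the 6 libraries alone, a replicate block, leaving out single libraries, DESeq2 1.42.0, and limma 3.58.1 on log2(RPKM + 1) or log2(RPKM + 0.1). A sex term and the omission of flox normoxia replicate 3 were added after seeing the data. The edgeR fit was tested on simulated counts for this comparison (22507 genes), with changes set only in genes with a mean of at least 1 CPM. It called 67.2% of 67 genes changed 1.5-fold, 89.6% of 67 changed 2-fold and 98.5% of 66 changed 4-fold. These rates do not cover genes at lower levels. Its intervals covered the true value for 95.1% of genes. Replicate numbers were not taken as pairs. Deviations of same-numbered libraries correlated at 0.166, -0.041 and 0.009, and those of differently numbered libraries at -0.15 to 0.132. So few values cannot exclude a pairing that the labels do not give.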

Additional observations from a re-analysis of the deposited data

Results flagged for a closer look

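Xist was at 739 CPM in KO normoxia replicate 3, a library labelled male that also had no Y-linked counts, whereas KO normoxia replicates 1 and 2 were at 0.169 and 0.057 CPM. The value was picked out because the labels name a single sex and no comparison of the report uses the gene. Flox normoxia replicate 3 (793 CPM) and KO hypoxia replicates 3 (688 CPM) and 4 (564 CPM) were high in Xist too, although labelled male. A fit without all of these libraries and KO normoxia replicate 3 had 208 genes higher in KO normoxia and 102 higher in flox hypoxia. With sex as a term the counts were 316 and 104. In the fit without Xist libraries the clock list had 8 calls toward flox hypoxia and 1 toward KO normoxia, where the full fit had 8 and 0. Immediate early genes had 12 and 1 (full fit 6 and 1) and striatal genes 5 and 0 (6 and 0). Pan-endothelial markers had 8 toward KO normoxia and 0 toward flox hypoxia (12 and 0). Without flox normoxia replicate 3 alone, the early genes had 17 and 1.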

How the results depend on the processing

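No called gene changed direction in any fit that left out a compared library. The count of 426 was 418 with RLE scaling and 450 with no composition factor, so the scaling moved few calls. It was 959 with no filter (718 higher in KO normoxia, 241 higher in flox hypoxia), 927 with only the 6 libraries (663 and 264), 803 with DESeq2 (584 and 219), 198 with limma on log2(RPKM + 1) (163 and 35), 282 on log2(RPKM + 0.1) (50 in flox hypoxia) and 13 against a minimum fold of 1.5. Leaving out 1 library gave 96 to 491 calls, 76 to 357 of them higher in KO normoxia and 20 to 134 higher in flox hypoxia. Leaving out libraries with Xist gave 208 higher in KO normoxia, 67.1% of calls. The count of alike genes was 13340 to 17443 in all fits at the 1.5-fold margin, 9957 within a narrower margin and 17386 within 2-fold. Lists with at least 3 calls numbered 18, and 33 with no filter, 32 with only the 6 libraries, 11 with limma on log2(RPKM + 1) and 3 to 18 without 1 library. Of the 24 genes with the largest differences, 14 were called with that limma fit and 12 to 24 without 1 library. The difference in hemoglobin share was 0.0629 to 0.0995 percentage points and that in mitochondrial share -0.223 to 0.197 without 1 library, the latter below 0 without KO normoxia replicate 1 (-0.0363) or 2 (-0.152) or flox hypoxia replicate 3 (-0.223). Against flox normoxia, 250 to 397 genes were called in KO normoxia and 0 to 45 in flox hypoxia without 1 flox normoxia library. Values near 0 changed sign: the tip cell median was -0.001 at 1 CPM in 3 libraries, the late activity median -0.026 with a sex term, the immature neuron median 0.019 at 1 CPM, 0.02 without KO normoxia replicate 1 and 0.013 without replicate 2 (-0.022 without replicate 3, the lowest), Abcc9 0.028 with a sex term, Hspg2 -0.019 without flox hypoxia replicate 2 (0.214 without replicate 3), and Nid2 0.02 without flox hypoxia replicate 3 (-0.083 without replicate 1). The causes were not tested. A fit with the replicate block, although the numbers were not taken as pairs, gave 457 calls, 378 of them among the 426. Depth limited genes below 0 log2 CPM, where 1.31% could be shown alike.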

Other observations

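Of 9 tested ependymal genes (median 0.07), edgeR called 1, Pltp, limma called 1 and DESeq2 2, and 2 had an unadjusted p under 0.05. In the following lists edgeR and limma called no gene. None of 13 hippocampal genes (median -0.14), 10 tested cerebellar genes (-0.06), 10 thalamic genes (0.12), 9 tested hypothalamic genes (-0.80), 11 oligodendrocyte precursor genes (0.08) or 14 prostaglandin genes (0.11) passed. At an unadjusted p under 0.05 were 4, 1, 0, 2, 3 and 3 of them, and DESeq2 called 2, 0, 0, 0, 1 and 0.

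Further single genes were far apart. Bst1, an ADP-ribosyl cyclase of stromal and endothelial cells, had 4.11, 3.62 and 3.37 CPM in KO normoxia and 0.174, 0.0643 and 0.0717 CPM in flox hypoxia, the latter near the floor (5.09 ± 0.47, edgeR adjusted p = 6.87e-05). Trpv4, a mechanosensitive calcium channel, had 9.17, 8.55 and 8.54 CPM against 3.76, 2.19 and 4.44 CPM (1.34 ± 0.29). Pltp, the phospholipid transfer protein, had 60.9, 68 and 59.6 CPM against 39.8, 35.9 and 40.3 CPM (0.70 ± 0.10). The cytokine Lif had 1.44, 1.45 and 1.53 CPM against 0.598, 0.729 and 0.454 CPM (1.30 ± 0.23), and the peptide Edn3 had 8.26, 9.28 and 9.09 CPM against 5.61, 5.4 and 4.78 CPM (0.75 ± 0.11). Toward flox hypoxia, Fzd2, a Wnt receptor, had 8.85, 7.47 and 8.65 CPM against 15.4, 13.2 and 12.9 CPM (-0.74 ± 0.10), the GTPase Arl4d had 17.1, 14.4 and 13.7 CPM against 35.4, 32.2 and 31.1 CPM (-1.13 ± 0.26), and the hydrolase Ovca2 had 7.11, 5.9 and 5.44 CPM against 14.9, 14.1 and 12.6 CPM (-1.17 ± 0.24). Bst1, Lif, Edn3 and Fzd2 were chosen after their values were seen. Arl4d was called in no fit that left out a compared library, and Trpv4 only without flox hypoxia replicate 3.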
